A study of Gallus gallus with 6 samples.

Results

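Genes of the Notch pathway were compared between anterior and posterior half-sclerotomes of the chick embryo. The set was chosen by name and comprised the ligand genes DLL1, DLL4, JAG1 and JAG2, the receptor genes NOTCH1 and NOTCH2, the glycosyltransferase gene LFNG and the target genes hairy1, HEY1 and HEY2. Of these 10 genes, 9 had a row among the 17108 of the gene table, and all 9 had been tested by the authors. HEY2 was not analysed here. Each somite forms a sclerotome, the tissue that gives rise to the vertebrae and ribs, and neural crest cells and motor axons pass through its anterior part and avoid its posterior part. Wild type embryos at embryonic day 3, Hamburger-Hamilton stage 18, were dissected, and the labels name no treatment. Tissue came from the 11th to 23rd most recent somites, and each library was made from a pool of 100 half-sclerotomes, with 3 libraries of anterior and 3 of posterior tissue. Nothing in the labels says that the pools came from separate embryos, so the authors' p-values may rest on spread that is technical.

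Notch is a receptor on the cell surface that is activated by a ligand on a neighbouring cell. The bound receptor is cut, its inner part enters the nucleus, joins the DNA-binding protein RBPJ and switches on genes of the HES and HEY families, which encode transcriptional repressors. In somites the pathway is known for the segmentation clock and for setting anterior against posterior identity as each somite forms. It also acts in neurons, muscle precursors and arterial endothelium, all of which lie in or near the sclerotome.

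All levels are the authors' FPKM, a read density per length of transcript and per total of reads, with 1 value per group made from its 3 libraries. No value per library was used, so levels carry no SD, and the authors' q-value is the sole measure of error. A gene was called where the authors had tested it and their q was under 0.05. Under that rule 7.07% of 10529 tested genes were called, 3.57% higher in posterior and 3.50% higher in anterior. The median log2 ratio of posterior over anterior over all tested genes was 0.0046, and 86.4% of tested genes with a finite ratio lay within 0.5 of 0 on the log2 scale. The smallest p that the authors' deposited table gives was 5e-05 (q = 0.00139), and the 380 genes that have it cannot be ranked by p. As a check of the labels, the posterior sclerotome factor UNCX was at 1.45 FPKM in anterior tissue and 87.8 FPKM in posterior tissue. The anterior sclerotome factor TBX18 was at 32.5 and 3.10 FPKM (q = 0.00139 per the authors' deposited table). PAX1, a factor of the whole sclerotome, was at 367 and 490 FPKM and was itself called higher in posterior (q = 0.0184 per the authors' deposited table).

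Of the 9 Notch genes, 5 were higher in posterior (DLL4, JAG1, JAG2, hairy1 and HEY1), 2 were higher in anterior (DLL1 and LFNG) and 2, both receptors, were not called. These 7 calls stand beside a background of 7.07%, but the genes were chosen with earlier results of these data known, so the contrast with the background is a description. The median log2 ratio of the 9 genes was 0.51. In pooled tissue, fewer cells of a type and less RNA per cell cannot be told apart. Endothelial markers had 11 posterior and 0 anterior calls in 21 tested genes. Sclerotome markers had 5 posterior and 0 anterior calls in 8 tested genes, with a median log2 ratio of 0.54. Markers of neural crest (8 of 12) and of dermomyotome and myotome (7 of 10) were called in anterior. Of all tested genes, 3.57% were called in posterior and 3.50% in anterior. The part of all these cells in the Notch calls was not tested. With a minimum of 1.5-fold, 3 of the 9 genes were called in posterior (background 2.52%), since JAG1 and HEY1 lay under it. At a q under 0.01, 7 of the 9 were called (background 4.71%), and at a q under 0.1, 8 were (background 9.12%), the added one being NOTCH1.

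**Figure D1:**
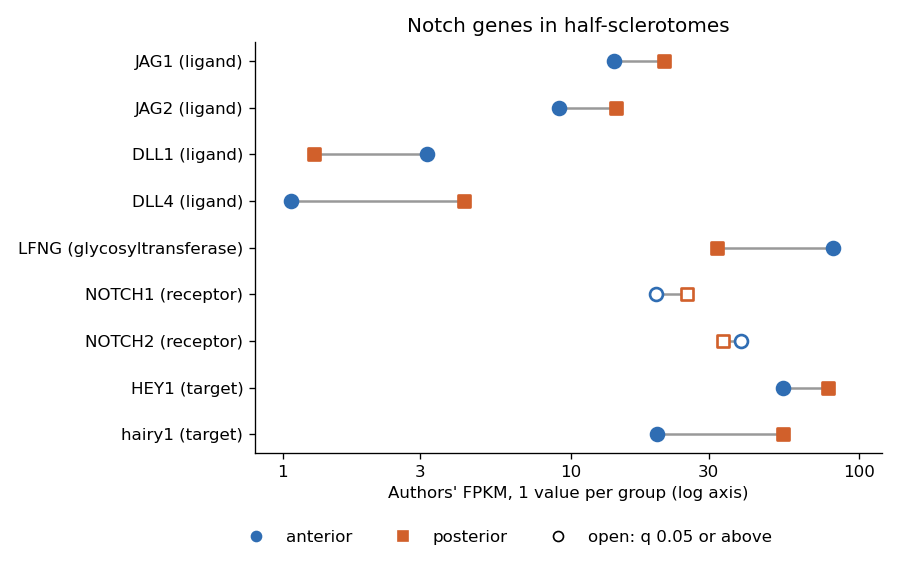
Authors' FPKM of each Notch gene in anterior (circles) and posterior (squares) half-sclerotomes on a log axis, 1 value per group, with open symbols where the authors' q was 0.05 or above. DLL1 and LFNG lie to the right in anterior, from 1.29 to 3.16 FPKM and from 32.0 to 81.0 FPKM, and the receptors have the shortest lines.

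The 4 ligand genes were called in both directions. JAG1, which encodes a ligand of the Jagged type, was the most abundant of them, at 14.1 FPKM in anterior tissue and 21.0 FPKM in posterior tissue (1.49-fold higher in posterior, log2 ratio 0.58, q = 0.00473 per the authors' deposited table). JAG2, the other Jagged ligand gene, was at 9.06 and 14.3 FPKM (1.58-fold, log2 ratio 0.66, q = 0.00139 per the authors' deposited table). Both Jagged genes were thus higher in posterior by less than the 2 Delta-like genes differed.

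DLL4, a Delta-like ligand best known from arterial endothelium and sprouting vessels, was at 1.07 FPKM in anterior tissue and 4.24 FPKM in posterior tissue. Without a pseudocount this was the largest ratio among the 9 genes (3.98-fold higher in posterior, log2 ratio 1.99, q = 0.00139 per the authors' deposited table). DLL1, the Delta-like ligand of the presomitic mesoderm, neurogenesis and muscle precursors, went the other way, at 3.16 FPKM in anterior tissue and 1.29 FPKM in posterior tissue (2.46-fold higher in anterior, log2 ratio -1.30, q = 0.00261 per the authors' deposited table). Both Delta-like genes had low levels. Only 0.921% of tested genes were below DLL4 in anterior tissue, and 1.99% were below DLL1 in posterior tissue. With 1 FPKM added to each value, their log2 ratios were 1.34 and -0.86, and that of hairy1, at 1.41, was then the largest.

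Since FPKM is scaled by length, levels of different genes within a group were set side by side. Such a comparison takes the annotated length of each gene as right, which was not checked. The 4 ligand genes summed to 27.4 FPKM in anterior tissue and 40.9 FPKM in posterior tissue. JAG1 made up 51.4% of that sum in both groups. JAG2 made up 33.1% in anterior and 35.0% in posterior tissue. The Delta-like share differed in make-up, with DLL1 at 11.5% and DLL4 at 3.90% of the sum in anterior tissue against 3.14% and 10.4% in posterior. The order of the ligand genes by level was JAG1, JAG2, DLL1, DLL4 in anterior and JAG1, JAG2, DLL4, DLL1 in posterior tissue. With 1 value per group, the spread that would separate neighbours in this order is unknown.

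The receptor genes were not called. NOTCH2 was at 38.9 FPKM in anterior tissue and 33.6 FPKM in posterior tissue (log2 ratio -0.21, q = 0.421 per the authors' deposited table). NOTCH1 was at 19.6 and 25.2 FPKM (log2 ratio 0.36, q = 0.0660 per the authors' deposited table, with an unadjusted p of 0.00515). Their sum was 58.5 FPKM in anterior tissue and 58.8 FPKM in posterior tissue, and NOTCH2 was the more abundant in both, at 1.98 times the NOTCH1 level in anterior and 1.33 times in posterior. A q above the threshold does not show that receptor levels were the same.

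LFNG had the highest level in anterior tissue among the 9 genes. It encodes Lunatic fringe, a glycosyltransferase that adds N-acetylglucosamine to O-fucose on Notch and so alters which ligands the receptor responds to. Its level was 81.0 FPKM in anterior tissue and 32.0 FPKM in posterior tissue (2.53-fold higher in anterior, log2 ratio -1.34, q = 0.00139 per the authors' deposited table). RFNG, the Radical fringe gene, was at 13.0 and 13.6 FPKM (q = 0.926 per the authors' deposited table). MFNG, the Manic fringe gene, was at 0.157 FPKM in anterior tissue, is listed at 0 in posterior, and was not tested by the authors. LFNG exceeded RFNG 6.23 times in anterior and 2.36 times in posterior tissue, and the 3 fringe genes summed to 94.1 and 45.6 FPKM.

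**Figure D2:**
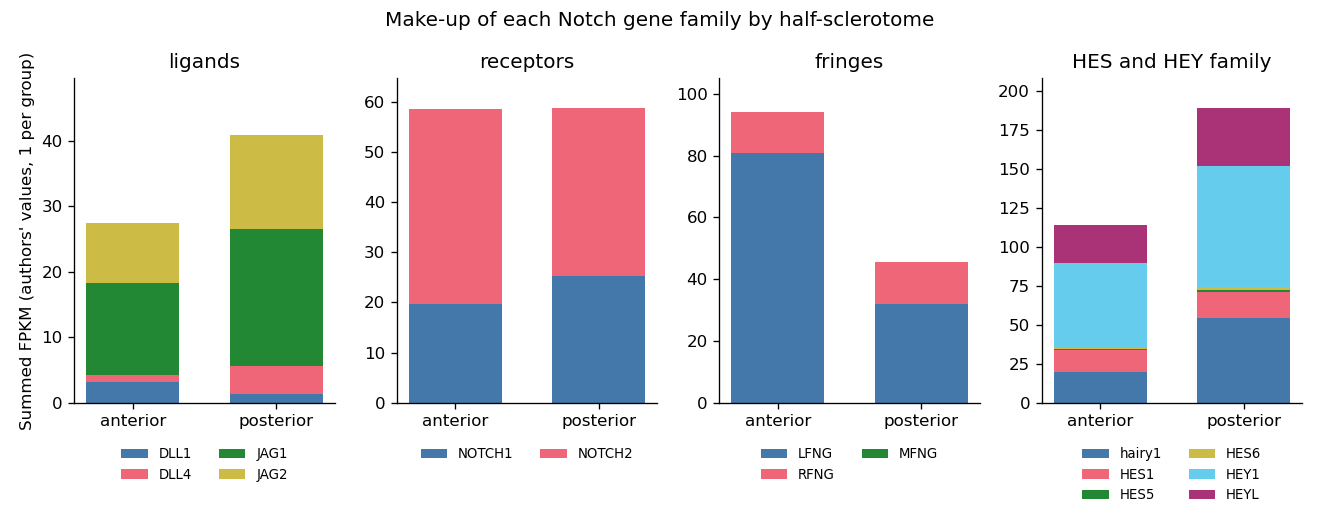
Stacked FPKM of the ligand, receptor, fringe and HES and HEY genes in anterior and posterior half-sclerotomes, 1 value per group and gene, on axes that start at 0 and differ between panels. The ligand sum is 27.4 FPKM in anterior and 40.9 in posterior and that of the HES and HEY genes 114 and 189, the receptor sums are 58.5 and 58.8, and the fringe sum is lower in posterior, at 45.6 against 94.1.

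The tested genes of the HES and HEY families lay toward posterior. NRARP, an inhibitor gene also induced by Notch and described below, lay toward anterior and was not called (log2 ratio -1.83, q = 0.141 per the authors' deposited table). HEY1, which encodes a repressor induced by Notch, was the most abundant of the 9 genes in posterior tissue, at 77.7 FPKM, against 54.5 FPKM in anterior (1.43-fold higher in posterior, log2 ratio 0.51, q = 0.00371 per the authors' deposited table). The repressor gene hairy1 was at 19.9 and 54.4 FPKM (2.74-fold, log2 ratio 1.45, q = 0.00139 per the authors' deposited table). It is known to cycle with the segmentation clock in chick presomitic mesoderm, and a RefSeq gene table of assembly GRCg7b lists its name as a synonym of HES4. HEY1 exceeded hairy1 2.74 times in anterior tissue and 1.43 times in posterior.

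Of the other HES and HEY genes, HEYL and HES6 were called, both higher in posterior. HEYL, another member of the HEY family, was at 24.1 and 37.4 FPKM (log2 ratio 0.63, q = 0.0309 per the authors' deposited table). HES6, which is known to antagonize HES1 and promote neuronal and muscle differentiation, was at 1.14 and 2.16 FPKM (log2 ratio 0.93, q = 0.0146 per the authors' deposited table). HES1 was at 13.8 and 16.5 FPKM and was not called (log2 ratio 0.26, q = 0.468 per the authors' deposited table). Its row lies on chromosome 9, apart from that of hairy1, but the RefSeq table gives HES1 both as a gene and as a synonym of HES4, so which gene the name HES1 stands for is uncertain. HES5, a Notch target of the neural tube, was at 0.472 and 1.21 FPKM and was not tested. In all, this family had 4 posterior and 0 anterior calls in 5 tested genes, beside 3.57% and 3.50% of all tested genes. The count goes by family, so it takes in HES6 and leaves out NRARP. It is not a count of genes known to be induced by Notch. HES6 shares its locus with another row, so its reads could have been divided.

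**Figure D3:**
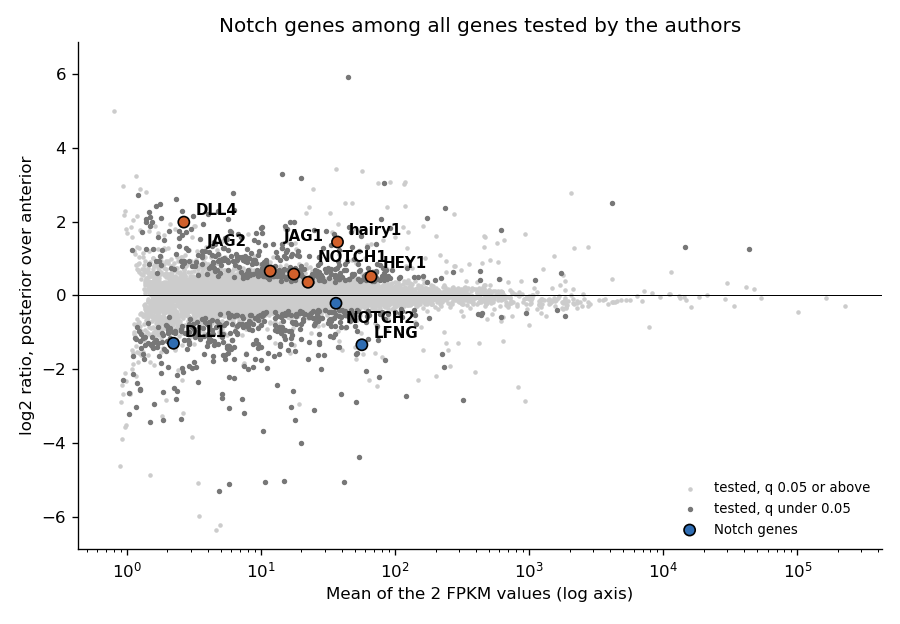
Log2 ratio of posterior over anterior FPKM against mean FPKM (log axis) for every gene tested by the authors with a finite ratio, with called genes in dark grey and the Notch genes in orange (higher in posterior) or blue (higher in anterior). DLL4 at 1.99, hairy1 at 1.45, DLL1 at -1.30 and LFNG at -1.34 lie farthest from 0 among the Notch genes, and NOTCH2 at -0.21 lies nearest to it.

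Set against all tested genes, the called Notch genes were spread over a wide range of sizes. By ratio, DLL4 ranked 27th and hairy1 64th of the 376 genes called higher in posterior, followed by JAG2 at 232nd, JAG1 at 267th and HEY1 at 309th. Among 367 anterior calls with a finite ratio, LFNG ranked 106th and DLL1 116th. By the size of the authors' test statistic, which separates genes tied at the lowest p, LFNG ranked 91st and hairy1 110th of 10473 tested genes with a numeric value, DLL4 236th, JAG2 375th, DLL1 396th, HEY1 482nd and JAG1 495th. Thus LFNG and hairy1 stood ahead of DLL4 by this measure although DLL4 had the larger ratio.

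The 9 genes lie on 7 chromosomes of the chick build galGal4. LFNG lies on chromosome 14 from 3222765 to 3232769, hairy1 on chromosome 21 from 2803581 to 2805434, and HEY1 on chromosome 2 from 120538764 to 120541690. DLL1 lies on chromosome 3 from 40170700 to 40178161, and JAG1 on the same chromosome from 12843173 to 12878172. DLL4 and JAG2 are both on chromosome 5, from 23697384 to 23706337 and from 52023888 to 52086423. NOTCH1 lies on chromosome 17 from 7809850 to 7842342 and NOTCH2 on chromosome 8 from 4145809 to 4225658. JAG1 alone of the 9 shares its locus with another row, an unnamed gene (ENSGALG00000026351) at 1.24 and 1.81 FPKM that was not called (q = 0.892 per the authors' deposited table). Within 100 kb of the 9 genes, 37 other genes had been tested and 3 were called, beside 7.07% of all tested genes. All 3 were near the receptor genes, which had most of the tested neighbours (15 for NOTCH1 and 10 for NOTCH2). They were GPSM1 and EGFL7 near NOTCH1 and the unnamed gene ENSGALG00000011777 near NOTCH2. None was called within 100 kb of the 7 called Notch genes, where 12 had been tested, too few to set against the receptor genes.

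The rest of the pathway was examined with a list of 58 genes in 9 roles, of which 45 were in the table and 42 had been tested. Of these 42, the posterior calls numbered 7 and the anterior calls 3. Leaving out the 9 Notch genes described above, 3 of 33 were called (9.09%, near the 7.07% of all tested genes), namely HEYL and HES6 in posterior and NEURL1B in anterior tissue. NEURL1B, a ubiquitin ligase gene of the Neuralized family, which acts on the endocytosis of Notch ligands in the cell that sends the signal, was at 13.8 and 4.19 FPKM (3.30-fold higher in anterior, log2 ratio -1.72, q = 0.00139 per the authors' deposited table). The widely used ligase gene of the same step, MIB1, was at 79.8 and 82.3 FPKM (q = 0.943 per the authors' deposited table). MIB1 shares its locus with another row, so its reads could have been divided.

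The machinery that ligands and receptors share had a share of calls near that of all tested genes. Among glycosyltransferases other than LFNG, genes of ligand endocytosis, receptor cleavage and the nuclear complex, and inhibitors, 28 had been tested, 1 was called (3.57%, beside 7.07% of all tested genes) and 26 lay within 0.5 of 0 on the log2 scale, as did 86.4% of all tested genes. The most abundant genes of these roles that were not called included POGLUT1, which glucosylates Notch (123 FPKM in anterior and 130 in posterior), ADAM10, the protease of the first activating cut (83.7 and 77.5), SNW1, a cofactor in the nucleus (72.5 and 66.3), and DTX4, of the Deltex ubiquitin ligases (136 and 118). Of these, ADAM10 shares its locus with another row, so its reads could have been divided. DNER, a ligand-like neuronal gene, was at 3.27 and 4.73 FPKM (q = 0.238 per the authors' deposited table). RBPJ, the DNA-binding partner of Notch, was at 13.0 and 10.1 FPKM (q = 0.387 per the authors' deposited table).

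The other gene outside that range was NRARP, which encodes a feedback inhibitor induced by Notch. It was at 11.6 FPKM in anterior tissue and 3.26 FPKM in posterior tissue, a log2 ratio of -1.83, with an unadjusted p of 0.0146 and a q of 0.141 per the authors' deposited table, so it was not called. The NRARP row is short, from 652943 to 653287 on chromosome 17, and the number of reads behind its level is unknown. RBPJ and NRARP were singled out after their values were seen.

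**Figure D4:**
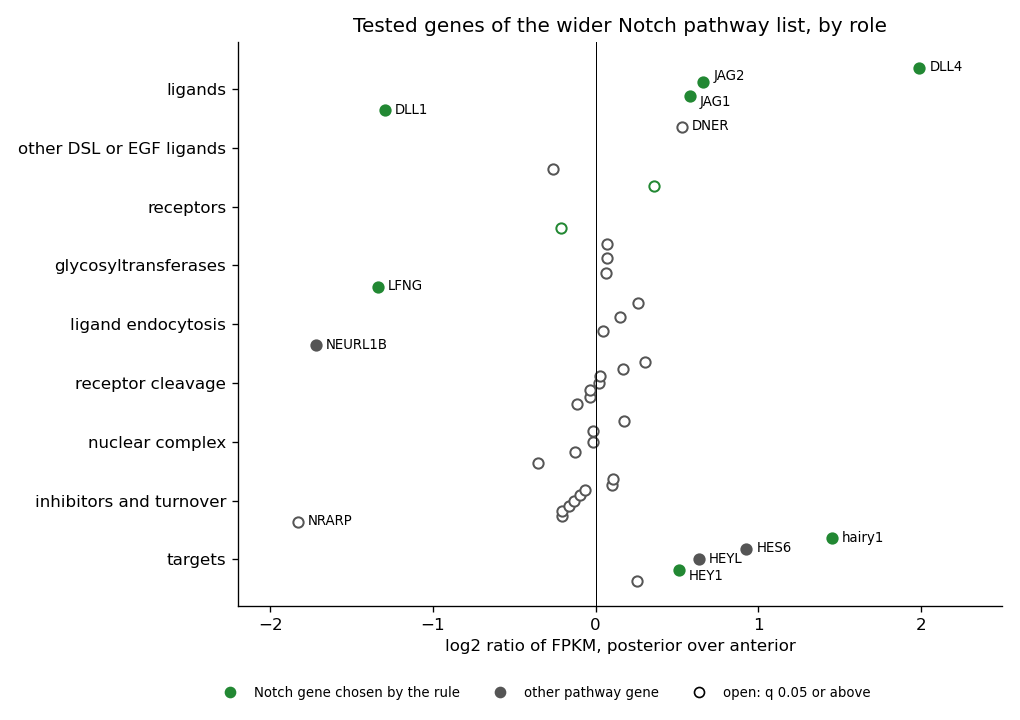
Log2 ratio of posterior over anterior FPKM for the 42 tested genes of the wider Notch pathway list in 9 roles, filled where the authors' q was under 0.05. Calls sit among ligands and targets (the listed HES and HEY genes), with LFNG and NEURL1B in the roles between. Genes of cleavage and of the nuclear complex lie between -0.36 and 0.30.

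Markers of other cell types differed between the groups as well. The 21 endothelial genes summed to 228 FPKM in anterior tissue and 325 FPKM in posterior tissue, with none at 0. PLVAP was the most abundant of those called, at 26.7 and 44.2 FPKM, and GJA4, a connexin gene of arterial endothelium, had the largest ratio of those called without a pseudocount, at 0.645 and 3.96 FPKM (both at q = 0.00139 per the authors' deposited table).

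Some endothelial genes did not move with DLL4. KDR, a VEGF receptor gene, was at 7.37 and 7.46 FPKM, and PECAM1 was at 14.3 and 14.0 FPKM (q = 0.982 and q = 0.968 per the authors' deposited table). DLL4 stood at 0.145 times the level of KDR in anterior and 0.569 times in posterior tissue. Against GJA5, a second arterial connexin gene, at 7.01 and 28.0 FPKM, it stood at 0.152 times in both groups. Against GJA4 it stood at 1.65 times in anterior and 1.07 times in posterior tissue. The ratios of DLL4 to PECAM1 were 0.0748 and 0.303, and those to CDH5, at 25.0 and 41.1 FPKM, were 0.0428 and 0.103. None of these ratios was tested. KDR, PECAM1, GJA5 and CDH5 were singled out after their values were seen.

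Markers of neural crest, dermomyotome and myotome were called in anterior alone, the direction of DLL1, LFNG and NEURL1B, and neuron markers in both directions. Of all tested genes, 3.50% were called in anterior and 3.57% in posterior. Neural crest and Schwann cell precursors had 8 anterior and 0 posterior calls in 12 tested genes, and the 13 in the table summed to 436 and 184 FPKM. Most of the posterior sum came from NGFR, at 80.8 and 79.3 FPKM, and SOX9, at 62.9 and 69.7 FPKM. Neither was called, nor was SOX8, at 2.38 FPKM in both groups (q = 0.963, 0.663 and 0.996 per the authors' deposited table). The crest factor gene SOX10 was at 103 and 4.92 FPKM, and TFAP2A, which had the largest ratio without a pseudocount, was at 9.52 and 0.240 FPKM. With 1 FPKM added to each value, the log2 ratio of TFAP2A was -3.09 and that of SOX10 -4.14. Neuron genes had 2 anterior calls and 1 posterior call in 5 tested, and the 12 in the table summed to 111 and 73.5 FPKM. TUBB3 was at 64.4 and 36.4 FPKM, and RET, a receptor gene of enteric and sympathetic neurons and their precursors, at 5.80 and 2.48 FPKM. DCX, a gene of migrating neurons, was the posterior call, at 9.38 and 21.2 FPKM (log2 ratio 1.17, q = 0.00139 per the authors' deposited table).

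The list of dermomyotome and myotome had 7 anterior and 0 posterior calls in 10 tested genes, beside 3.50% and 3.57% of all tested genes. The 12 in the table summed to 142 and 54.7 FPKM. ACTC1, a muscle actin gene, was at 40.4 and 13.1 FPKM, and PAX3, a dermomyotome factor gene, at 10.2 and 1.22 FPKM. Neural tube progenitor genes had 0 calls among 2 tested, also 0 at an unadjusted p under 0.05 per the authors' deposited table, and the 4 in the table summed to 9.67 and 3.65 FPKM. SOX2 was at 6.74 and 0.107 FPKM (log2 ratio -5.98, q = 0.680 per the authors' deposited table), and DBX1, not tested, was listed at 0 in posterior tissue. DBX2, the other tested gene, went the other way, at 2.40 and 3.47 FPKM (log2 ratio 0.53, q = 0.521 per the authors' deposited table). Sclerotome genes had 5 posterior and 0 anterior calls in 8 tested, beside 3.57% and 3.50% of all tested genes. Among those called were PAX1 and TCF15, the latter at 39.8 and 104 FPKM, and TCF15 shares its locus with another row. The abundant sclerotome genes FOXD1, at 407 and 319 FPKM, and FOXC2, at 185 and 179 FPKM, had ratios below 0 and were not called (q = 0.120 and q = 0.939 per the authors' deposited table). NGFR, SOX9, SOX8, DCX, SOX2, DBX1, DBX2, FOXD1 and FOXC2 were singled out after their values were seen.

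**Figure D5:**
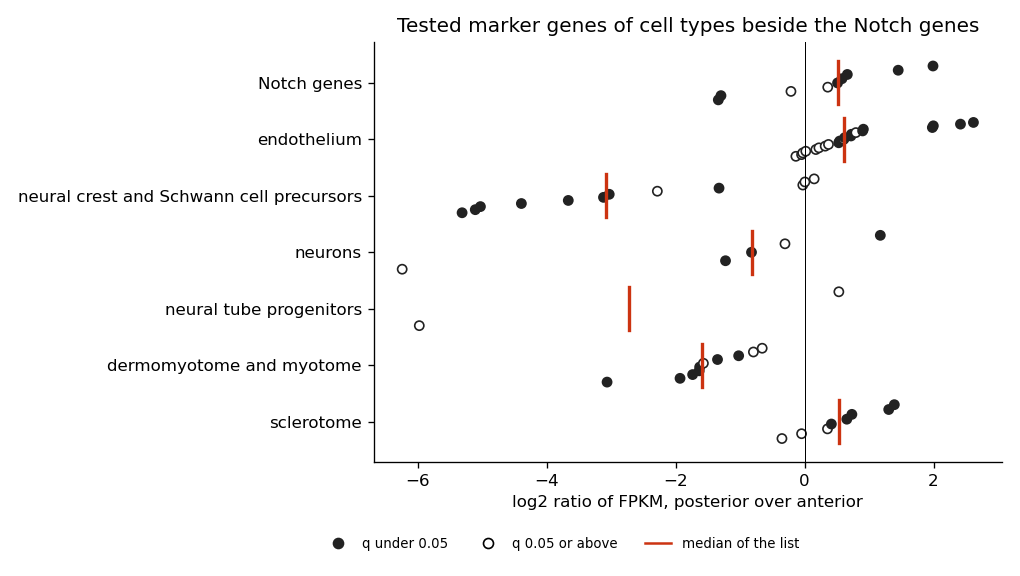
Log2 ratio of posterior over anterior FPKM for the 9 Notch genes and for tested markers of 6 cell types, 1 point per gene, filled where the authors' q was under 0.05, with a red line at each median. Endothelial and sclerotome medians lie at 0.61 and 0.54, and the crest and myotome medians at -3.07 and -1.60. Neuron and neural tube medians, from 5 and 2 tested genes, lie at -0.82 and -2.72. The Notch median of 0.51 pools genes called in both directions, with ratios from -1.34 to 1.99.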

How the data were processed

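RNA of anterior and posterior half-sclerotomes was sequenced from 6 libraries, 3 per group. Per the labels' protocols, about 200 ng of total RNA was selected for poly(A), made into stranded libraries and read as 50 base single-end reads. Cuffdiff, Cufflinks 2.2.1, TopHat2 2.1.0, FastQC and the build galGal4 are listed without roles per the submitters' processing notes. The deposited gene table has the columns of a Cuffdiff comparison. Per the file headers it holds 1 FPKM value per group, a p-value and q-value and a signed test statistic (a score with no stated scale, used here for ranks). For the annotation release and the scaling between libraries, the sources used here give nothing. The table holds no counts, so depth is unknown and no counting interval could be given.

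Ratios were computed here from the deposited FPKM with no pseudocount (Python 3.11.15, pandas 2.3.3). Benjamini-Hochberg adjustment over tested rows matched the authors' q to within 5.27e-07 and was tested on simulated data. Table starts count from 0, so 1 was added. Listed genes were matched by symbol or, for 6 of them, by a synonym in a RefSeq table of assembly GRCg7b used for names alone, taking the tested row of highest mean FPKM. The members and lists were chosen with earlier results of these data known. All members were named, as were called genes of the wider list and the most abundant uncalled gene per role; of each cell type list, the called gene of highest mean FPKM and that of largest ratio were named. Alternatives were other q thresholds, a minimum fold, filters on rows, pseudocounts and scalings. No set test was run.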

Additional observations from a re-analysis of the deposited data

How the results depend on the processing

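No paired analysis was possible because the table holds 1 value per group, and leaving out a library was impossible for the same reason. Requiring at least 1.5-fold reduced the Notch genes higher in posterior from 5 to 3, losing JAG1 and HEY1. At a q under 0.1 NOTCH1 joined the posterior calls, making 6. At a q under 0.01 all 7 Notch calls were kept. HES6 and HEYL were lost from the wider list, so that HES and HEY genes called fell from 4 to 2. Calls among all tested genes fell from 368 to 245 in anterior and from 376 to 251 in posterior. Without rows that share a locus, JAG1 and HES6 could not be counted. Filters on mean FPKM of at least 1 and on rows with a symbol removed none of the 42 tested genes of the wider list. They could alter its calls only through the readjusted q, and no call changed. A pseudocount added to both values cannot change the sign of a ratio. The shifts between groups that 4 scalings removed lay between -0.029 and 0.012 (log2). All were smaller in size than the smallest ratio of the 30 genes examined, that of MIB1 at 0.043, so none of their signs could change. PECAM1 (log2 ratio -0.0289), NGFR (-0.0276) and SOX8 (0.0048) were not among the 30. Their ratios lay within the shifts, so their signs depend on the scaling. A pseudocount of 1 FPKM lowered DLL4 from 1.99 to 1.34, so the sizes of low genes depend on it. Depth is unknown, and the spread among libraries of a group cannot be read from q.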

Other observations

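Genes of the endothelial list had a wide range of ratios, with 18 of the 21 tested genes above 0 on the log2 scale and 3 below. Among those below, PECAM1 was so near 0 that its side depends on the scaling. Besides GJA4 and GJA5, the secreted factor gene ESM1 was at 0.518 FPKM in anterior tissue and 2.77 FPKM in posterior tissue, and VWF was at 0.620 and 2.45 FPKM, each at q = 0.00139 per the authors' deposited table. The transcription factor genes ERG and FLI1 were at 34.0 and 38.4 FPKM and at 38.2 and 34.8 FPKM, and FLT4, a receptor gene of venous and lymphatic endothelium, was at 6.49 and 6.29 FPKM, with q = 0.675, 0.781 and 0.952 per the authors' deposited table. EMCN, at 10.8 and 15.6 FPKM (q = 0.0244 per the authors' deposited table), was also called higher in posterior, as were SOX18, ESAM, TIE1 and EGFL7. A difference between arterial and other endothelial genes was not tested. These genes were singled out after their values were seen.

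The ratio of summed Jagged to summed Delta-like ligand FPKM was 5.47 in anterior and 6.40 in posterior tissue. The ratio of DLL1 to DLL4 went from 2.96 in anterior to 0.303 in posterior tissue. The sum of the 4 ligand genes over that of the receptor genes was 0.468 in anterior and 0.696 in posterior tissue. Such ratios within a group do not depend on how the groups were scaled to each other, and none was tested, since each rests on 1 value per group.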
